A study of Mus musculus with 31 samples.

Results

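The genes described here are 10 genes of the pericellular matrix, taken by name: the small leucine-rich proteoglycans Dcn, Lum, Bgn, Fmod, Ogn and Prelp, the hyaluronan synthases Has1, Has2 and Has3, and the hyaluronan receptor Cd44. They are 10 of the 21938 protein-coding genes of the GENCODE annotation of mm10. Chromatin accessibility at these genes was read from an ATAC-seq peak list of NIH-3T3, an established line of mouse embryonic fibroblasts, in its parental form without a transgene, labelled WT. In ATAC-seq the Tn5 transposase inserts sequencing adapters into DNA not wrapped in nucleosomes, and peaks mark where the resulting fragments accumulate. Nuclei of 50000 cells received 0.5 µM Tn5, and the labels give 12 cycles of PCR and list no doxycycline for this line. The methods differ from the labels, in that they have the number of cycles set by qPCR and NIH-3T3 cells in general treated with 500 ng/ml doxycycline for 48 h, so whether the WT cells received it is not settled by the sources used here. The other 30 samples of the series, NIH-3T3 cells that overexpress 1 of 13 transcription factors or carry the activator rtTA3G alone, all under 500 ng/ml doxycycline for 48 h, were not analysed here. As there was only 1 library, replicate error could not be measured, no test was made and every value below describes this library.

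Of 63456 peaks in the library, 84 lay at these genes or within 50 kb of them. For each gene a peak was called a promoter peak when its interval came within 1 kb of a transcription start site (TSS) of that gene, a gene-body peak when its summit was elsewhere in the gene, and a flanking peak when its summit was outside the gene and within 50 kb. The 84 peaks comprised 5 promoter peaks, 18 gene-body peaks and 62 flanking peaks, with 1 peak that was in the body of Dcn and in the flank of Lum counted in both of the last classes. Peak height is given as fold, which divides the pileup of fragments under the summit by the pileup expected locally, and as the number of fragments at the summit, solved from fold and the p-value. The 95% intervals of fragment numbers are exact Poisson intervals and cover counting error only. In the whole list, summits had a median of 29 fragments (quartiles 19 and 52), and the background that the peak caller expected genome-wide was 2.81 fragments. The positions of summits are given in kb from the most upstream TSS of a protein-coding transcript, counted along transcription, so that negative values are upstream.

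Small leucine-rich proteoglycans are secreted proteins whose curved core of leucine-rich repeats binds collagen and carries glycosaminoglycan chains in many but not all members of the family. They set the diameter and spacing of collagen fibrils and are typical products of fibroblasts and related cells. Hyaluronan is a long glycosaminoglycan without a protein core. It is extruded through the plasma membrane by the hyaluronan synthases, is bound at the cell surface by CD44 and is cut by hyaluronidases. An accessible promoter is not a measure of expression, and no RNA was measured in these files.

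Promoter sequence was taken from RefSeq (GRCm38.p6, the build of the peaks), which matched 6 of the 10 genes: Bgn, Fmod, Ogn, Prelp, Has1 and Cd44. The 250 bases before the TSS are shown for 4 of them, 2 with a peak over part of the window (Cd44 and Prelp) and 2 without (Bgn, the richest in G and C of the 6, and Ogn, the poorest). Each runs 5′ to 3′ along the gene and ends at the base before the RefSeq TSS, and capitals mark CpG dinucleotides.
Cd44 promoter, chr2:102901666-102901915, minus strand: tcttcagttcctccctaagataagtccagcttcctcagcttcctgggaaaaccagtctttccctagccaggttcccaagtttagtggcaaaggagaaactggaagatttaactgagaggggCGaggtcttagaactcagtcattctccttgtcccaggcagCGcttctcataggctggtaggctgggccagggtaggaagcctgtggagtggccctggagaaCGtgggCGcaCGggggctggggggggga
Prelp promoter, chr1:133921402-133921651, minus strand: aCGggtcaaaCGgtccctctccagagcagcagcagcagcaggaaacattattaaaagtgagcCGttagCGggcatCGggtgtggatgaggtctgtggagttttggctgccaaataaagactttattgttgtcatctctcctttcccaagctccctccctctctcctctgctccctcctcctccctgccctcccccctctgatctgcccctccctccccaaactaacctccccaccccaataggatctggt
Bgn promoter, chrX:73483351-73483600, plus strand: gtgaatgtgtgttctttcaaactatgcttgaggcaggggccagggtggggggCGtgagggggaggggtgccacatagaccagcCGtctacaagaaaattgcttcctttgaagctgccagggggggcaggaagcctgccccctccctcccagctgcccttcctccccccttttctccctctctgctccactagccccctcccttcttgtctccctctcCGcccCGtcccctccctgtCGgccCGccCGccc
Ogn promoter, chr13:49607765-49608014, plus strand: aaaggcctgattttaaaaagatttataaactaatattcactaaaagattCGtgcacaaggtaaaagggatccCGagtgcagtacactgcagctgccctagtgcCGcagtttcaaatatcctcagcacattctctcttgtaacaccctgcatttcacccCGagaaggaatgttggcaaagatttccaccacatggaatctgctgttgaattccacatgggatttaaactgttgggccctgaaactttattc

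The Cd44 and Prelp windows each held 5 CpG, the Bgn window 7 and the Ogn window 4. The promoter peak covered 165 of the 250 bases in Cd44 and 172 of the 250 in Prelp, and no base in Bgn, Ogn, Fmod or Has1. GC content over these windows was 56.4% in Cd44, 55.6% in Prelp, 64.4% in Bgn and 42.0% in Ogn.

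Away from TSSs, the summit base with 50 bases to each side is shown for the peak of highest −log10 q, among those more than 1 kb from every TSS, of 9 genes, while Has3 had no such peak. Capitals mark TGACTCA or its reverse complement TGAGTCA, the heptamer bound by AP-1 factors such as Fos and Jun. The windows of Cd44, Has2, Fmod, Bgn and Ogn held it, and those of Has1, Prelp, Dcn and Lum did not. Of all peaks in the library more than 1 kb from every TSS, 26.4% held it, but these 9 were picked by −log10 q. The Dcn peak shown tied at a −log10 q of 31.7 with the peak in its intron 7, which is shown for Lum.
Cd44 summit window, chr2:102873352-102873452, plus strand: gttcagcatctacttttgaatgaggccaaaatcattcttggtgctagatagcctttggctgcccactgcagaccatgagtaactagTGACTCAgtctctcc
Has2 summit window, chr15:56634345-56634445, plus strand: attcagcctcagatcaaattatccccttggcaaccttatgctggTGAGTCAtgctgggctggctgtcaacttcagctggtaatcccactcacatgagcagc
Fmod summit window, chr1:134065471-134065571, plus strand: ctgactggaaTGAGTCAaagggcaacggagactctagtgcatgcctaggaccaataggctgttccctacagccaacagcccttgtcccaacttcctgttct
Bgn summit window, chrX:73465637-73465737, plus strand: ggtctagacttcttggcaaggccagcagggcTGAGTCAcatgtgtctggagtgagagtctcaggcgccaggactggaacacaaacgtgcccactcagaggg
Ogn summit window, chr13:49584004-49584104, plus strand: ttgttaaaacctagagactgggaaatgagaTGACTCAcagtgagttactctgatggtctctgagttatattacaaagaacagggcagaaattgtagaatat
Has1 summit window, chr17:17845607-17845707, plus strand: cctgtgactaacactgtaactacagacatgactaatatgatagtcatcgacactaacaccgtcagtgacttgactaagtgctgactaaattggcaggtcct
Prelp summit window, chr1:133959587-133959687, plus strand: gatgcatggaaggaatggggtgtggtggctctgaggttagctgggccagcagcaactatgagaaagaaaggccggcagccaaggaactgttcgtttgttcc
Dcn summit window, chr10:97442471-97442571, plus strand: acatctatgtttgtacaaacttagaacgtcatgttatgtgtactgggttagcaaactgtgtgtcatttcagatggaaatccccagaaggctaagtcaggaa
Lum summit window, chr10:97516672-97516772, plus strand: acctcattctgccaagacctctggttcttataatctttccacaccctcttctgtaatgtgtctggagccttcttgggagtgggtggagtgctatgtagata

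The Cd44 window is in intron 1 of the gene, that of Has1 is in intron 4, and the others are between genes or in a neighbouring gene, Omd for Ogn and intron 7 of Dcn for Lum. Fragments at these summits numbered 135 in Cd44, 116 in Fmod, 107 in Has1, 87 in Prelp, 73 in Has2, 44 in Ogn and 42 in Bgn, Dcn and Lum. All 9 were above the median of the library. Each was chosen as the peak of highest −log10 q of its gene, so this was largely set by the choice.

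The first question is which of the genes have an accessible TSS in these fibroblasts. A promoter peak was present at 5 of the 10 genes (Dcn, Fmod, Prelp, Has2 and Cd44) and absent from Lum, Bgn, Ogn, Has1 and Has3. Over all protein-coding genes, 53.7% had a peak this close to a TSS. Only at Has2 and Cd44 did the peak cover a TSS, 2 of 10 genes against 48.7% of protein-coding genes. The 3 promoter peaks at proteoglycan genes lay beside the TSS and were lower than most.

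Cd44 had the strongest promoter peak of the 10. It spanned chr2:102901008-102901830, reached a fold of 10.9 and a −log10 q of 68.0, and had its summit in the 5′ UTR. The 95% interval of its summit depth was 82.3 to 122.7 fragments. Among the 11788 protein-coding genes with a promoter peak, whose median was a fold of 9.86 and 64 fragments, its strongest peak ranked above 61.3% by fold and above 81.4% by fragments. Cd44 was thus the only one of the 10 genes whose promoter peak was above both medians.

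Has2, the synthase required in the embryo for heart development, had a peak across its TSS at chr15:56694397-56694882. The fold was 4.49, the −log10 q 18.1 and the summit depth 56 fragments (42.3 to 72.7). By fold this peak ranked above 6.40% of promoters with a peak, and by fragments above 40.4%. The expected pileup here was 11.7 fragments, well over the genome-wide 2.81, and fold is taken relative to it. A larger peak stood in intron 1, at chr15:56692219-56693492, with a fold of 12.1, a −log10 q of 106 and 151 fragments (127.9 to 177.1). Its edge was 1047 bp from the Has2 TSS, just past the limit for a promoter peak, and within 1 kb of a TSS of Has2os, the antisense transcript of the locus. The intervals of these 2 summits did not overlap, and the deeper of both lay inside the gene.

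Prelp, a basic proteoglycan that anchors basement membranes to collagen, had a promoter peak at chr1:133921480-133921905, 66 bp upstream of the TSS. The fold was 6.57, the −log10 q 17.4 and the depth 35 fragments (24.4 to 48.7), above 19.7% of promoters with a peak by fold. Fmod, a regulator of collagen fibrils in tendon, had a peak in intron 1 at chr1:134038484-134038676 with a fold of 4.19, a −log10 q of 7.50 and 24 fragments (15.4 to 35.7). Dcn, the proteoglycan that decorates collagen fibrils and binds TGF-β, had a peak in intron 1 at chr10:97481516-97481745 with a fold of 4.99, a −log10 q of 7.37 and 18 fragments (10.7 to 28.4). The Fmod and Dcn peaks counted as promoter peaks only through a TSS downstream of the main one. That of Fmod was 988 bp from the start of Fmod-202 and that of Dcn 622 bp from the start of Dcn-202, whereas their summits were at 1.36 kb and 2.08 kb from the main TSS. Just outside the limit were the intron 1 peak of Has2, a peak of Bgn at 1064 bp, a peak of Dcn at 1308 bp and a peak of Has1 at 1424 bp. The Bgn distance is to the start of the internal transcript Bgn-208. The Dcn peak, at chr10:97478163-97478301 upstream of the gene, had 13 fragments (6.92 to 22.2) and was the nearest to the main TSS of Dcn.

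At the 5 genes without a promoter peak, the distance from any TSS of the gene to the nearest peak separated Bgn and Has1 from the rest. It was 1064 bp in Bgn, 1424 bp in Has1, 9205 bp in Lum, 21530 bp in Has3 and 21589 bp in Ogn. The Bgn value is to the start of the internal transcript Bgn-208. From the main TSS the nearest peak was 6531 bp away in Bgn and 1441 bp in Has1. Lum, Has3 and Ogn also had no peak in the gene. Lum encodes lumican, which sets fibril spacing in the cornea, and Ogn encodes osteoglycin, also known as mimecan.

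**Figure D1:**
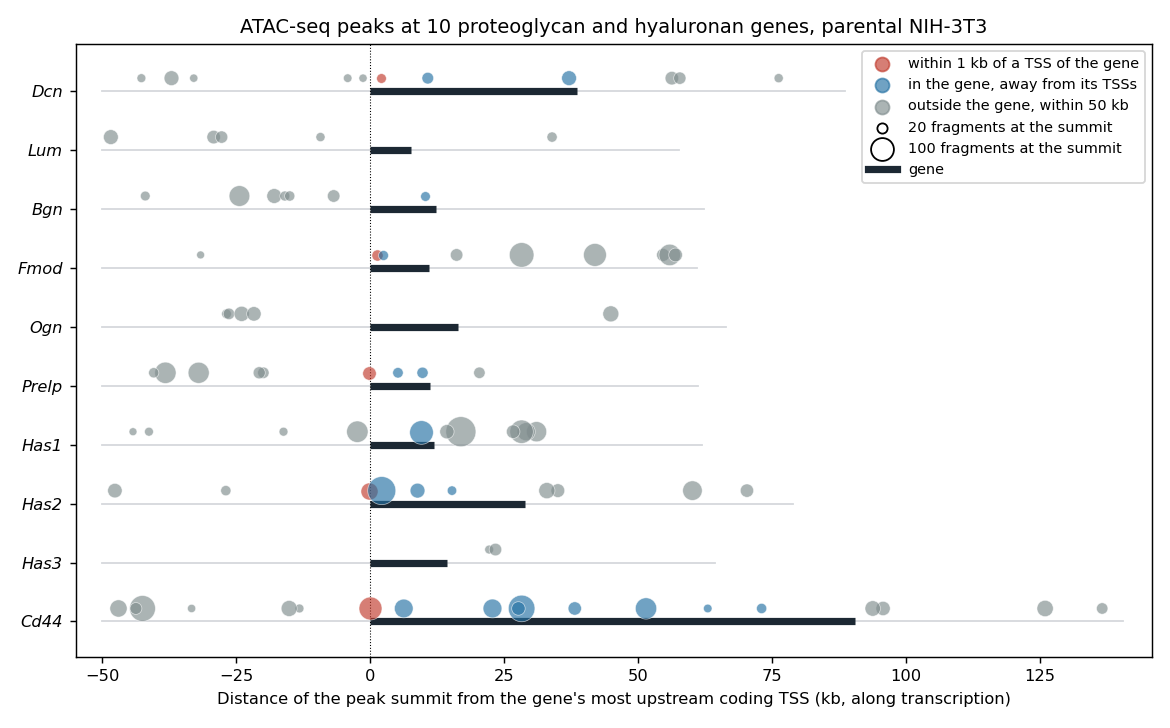
Position of each peak summit relative to the main TSS of its gene (x axis, kb along transcription) for the 10 genes (rows). Circle area grows with the fragments at the summit, colour gives the peak class, the dark bar is the gene and the thin line the gene with 50 kb on each side. Circles centred within 1 kb of the start of the bar are present only at Prelp, Has2 and Cd44. The nearest ones of Dcn, Fmod and Has1 are centred at −1.34, 1.36 and −2.40 kb. Lum, Ogn and Has3 have no circle over the gene itself.

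The second question is how the accessible regions are spread over the bodies and flanks of the genes. In the gene body, away from the TSSs of the gene itself though not of other genes, 7 of the 10 genes had at least 1 peak. This compares with 33.9% of protein-coding genes. The 18 peaks came to 7.42 per 100 kb of gene, against 2.19 over all protein-coding genes. Both densities divide pooled peaks by summed gene length, so long genes weigh most, and genes of like length were not compared. Cd44, the longest of the 10 at 90.5 kb, held 8 of the 18 peaks. Without it 10 peaks were left, or 6.57 per 100 kb. The lengths of the other genes were 7.58 to 38.5 kb, against a median of 17.4 kb over all protein-coding genes.

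Outside the gene, all 10 genes had a peak within 50 kb, as did 82.1% of protein-coding genes. Counted with the gene itself, the number of peaks was 19 at Cd44, 11 at Dcn and Has1, 10 at Has2, 9 at Fmod and Prelp, 7 at Bgn, 5 at Lum and Ogn, and 2 at Has3. The median over protein-coding genes was 5 (quartiles 2 and 9). Cd44 exceeded 98.1% of them, while Has3 exceeded 21.6%. These ranks are not adjusted for gene length, and Cd44 is the longest of the 10 at 90.5 kb.

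The 6 proteoglycan genes and the 4 hyaluronan genes had 42 peaks each, and these differed in depth. The median summit was 25.5 fragments at the proteoglycan genes and 41 at the hyaluronan genes, and 6 and 18 peaks reached 50 fragments. The highest summits were 116 and 173 fragments. Both sets include peaks at TSSs of other genes, such as the 173 at Spaca6. Fragment numbers are not adjusted for the expected pileup, which reached 10.6 at Fmod and 16.0 at Has1. Peaks of 1 library are not replicates of a gene group, so no test was made of the difference in depth.

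**Figure D2:**
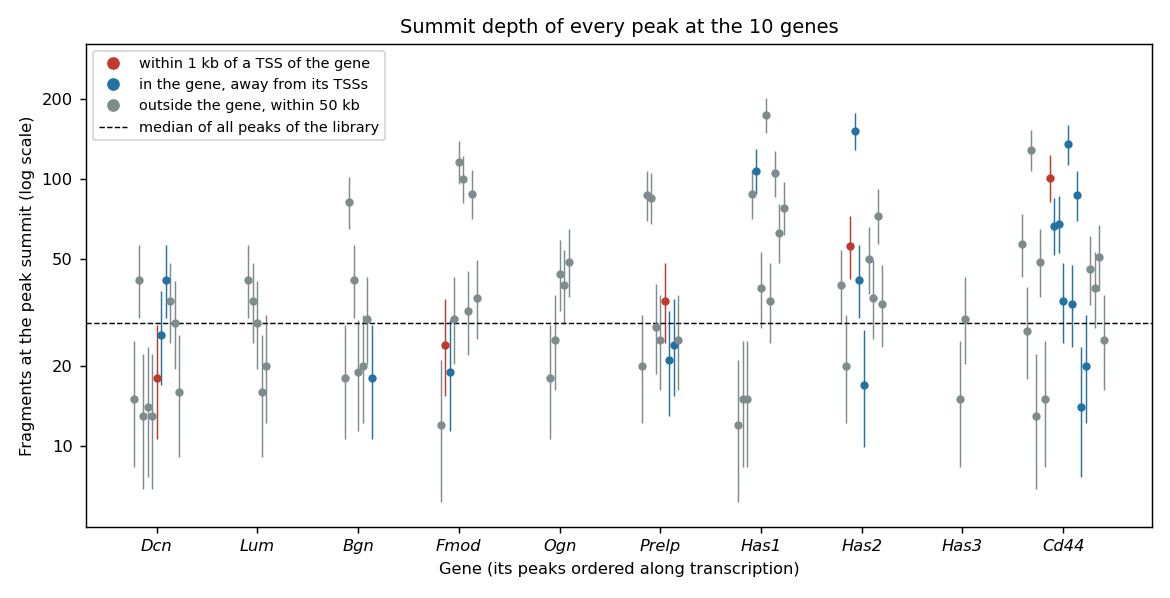
Fragments at the summit of each peak (y axis, log scale) for the 10 genes (x axis, peaks ordered along transcription), with exact 95% Poisson intervals. The dashed line is the median of the library, 29 fragments, and peaks above 100 fragments are seen at Fmod, Has1, Has2 and Cd44.

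Dcn and Lum are neighbours in the same orientation, 46985 bp apart on chromosome 10, and share 4 of their peaks. Dcn had peaks in intron 2 with 26 fragments and in intron 7 with 42 (30.3 to 56.8, fold 11.3). An upstream peak at −37.1 kb also had 42 fragments and a fold of 11.3. The other peaks of the locus had 13 to 35 fragments, so neither gene had a summit over 42. Kera, the next proteoglycan gene along this cluster, had no promoter peak.

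Bgn, which encodes biglycan of bone and other connective tissue, lies on chromosome X. Its gene-body peak was in intron 7, close to the start of the internal transcript Bgn-208, with 18 fragments. The flanking peak with the highest −log10 q was at −24.4 kb at the TSS of the neighbouring gene Haus7, with 82 fragments and a fold of 19.0, the highest fold of any peak at the 10 genes. The strongest peak away from any TSS, shown above, was at −17.9 kb with 42 fragments (30.3 to 56.8).

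Fmod and Prelp are both on chromosome 1, and in each the deepest flanking peaks had more fragments than the promoter peak. Downstream of Fmod, a peak at 28.3 kb had 116 fragments (95.9 to 139.1), a fold of 11.5 and a −log10 q of 79.9. Further along, a peak at the TSS of Btg2 had 100 fragments and a peak at 55.9 kb had 88. Upstream of Prelp, peaks at −32.0 kb and −38.2 kb had 85 (67.9 to 105.1) and 87 (69.7 to 107.3) fragments. The other flanking peaks had 12 to 36 fragments at Fmod and 20 to 28 at Prelp, so that 4 of the 6 at Prelp were below its promoter peak of 35 and 1 of the 7 at Fmod was below its promoter peak of 24. The gene-body peaks were low in both genes, with 19 fragments in Fmod and 21 and 24 in Prelp. The Prelp peak of 24 fragments was in the 3′ UTR, where the antisense transcript Gm15851 overlaps it.

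Ogn lies within the span of Cenpp and next to the proteoglycan genes Omd and Aspn. Its flanking peaks were in or near Omd, with 18, 25, 44 and 40 fragments, and at the shared start of Cenpp and Nol8, with 49. The peak of 25 fragments was the promoter peak of Omd, and Aspn had none.

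Has1, the synthase of the chromosome 17 locus, had no promoter peak but deep peaks in the gene and on either side. A peak in intron 4 had 107 fragments (87.7 to 129.3), a fold of 11.2 and a −log10 q of 72.8. Upstream, a peak with its summit at −2.40 kb had 88 fragments (70.6 to 108.4) and a fold of 11.9. Downstream, a peak at a TSS within Spaca6 had 173 fragments (148.2 to 200.8), a fold of 13.0 and a −log10 q of 126, the deepest of the 84. The expected pileup reached 16.0 fragments in this region, and 4 of the 10 flanking peaks lay at TSSs of Spaca6.

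In Has2, further gene-body peaks had 42 fragments in intron 1 and 17 in intron 2. The flanking peak of highest −log10 q was past the end of the gene at 60.1 kb, with 73 fragments (57.2 to 91.8) and a fold of 14.9. Has3, by contrast, had no peak of its own: both of its flanking peaks were at TSSs of Chtf8 and Utp4, with 15 and 30 fragments.

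Cd44 held a series of peaks along its introns. In intron 1 the summits had 67, 68, 35 and 135 fragments, in order along transcription, and the peak of 135 (113.2 to 159.8) had a fold of 13.1 and a −log10 q of 100.0. The next introns held a peak of 34 fragments in intron 2 and of 87 (69.7 to 107.3, fold 14.9) in intron 5, and those in introns 11 and 15 had 14 and 20. The interval of the deepest intron 1 peak overlapped that of the promoter peak. Upstream, a peak at −42.5 kb had 128 fragments (106.8 to 152.2) and a fold of 10.4. None of the Cd44 flanking peaks was at the TSS of another gene.

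The AP-1 heptamer was next counted at all summits, on both strands, within 50 bases of the summit base. Of the 66 peaks at the 10 genes more than 1 kb from every TSS, 20 held TGACTCA, or 30.3% (exact binomial 95% interval 19.6% to 42.9%). This was close to the 26.4% of all 47192 such peaks in the library, which lies inside the interval. Of the 18 peaks near a TSS of any gene, 0 held it, with an exact binomial upper bound of 18.5%, against 8.15% of 16264 such peaks. Per gene, the heptamer was under 6 summits at Cd44, 3 each at Dcn, Has1 and Has2, 2 each at Bgn and Fmod, 1 each at Lum and Ogn (that of Lum being shared with Dcn), and none at Prelp and Has3. Peaks away from TSSs at the 10 genes had a median fold of 5.79, similar to the 5.54 of all peaks of that class. Their median depth was higher, at 33 fragments against 25.

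The other motifs searched gave shares near the background as well. GGAATG, the core bound by TEAD factors, was in 10.6% of the 66 summit windows (4.37% to 20.6%), against 9.52% of all such peaks. TGTGGT, the core bound by RUNX factors, was in 15.2% (7.51% to 26.1%), against 13.2%. TGACGTCA, the cyclic AMP response element, and TTCNNNGAA, the palindrome bound by STAT factors, were in none, against 0.206% and 3.52%. GGGCGG, the GC box, and TATAAA, the TATA box, were in 1 window each, or 1.52%, against 3.52% and 4.15%. Near TSSs, GGGCGG was in 4 of the 18 windows, or 22.2% (6.41% to 47.6%), against 30.5%.

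In the promoters of the 6 genes that RefSeq matched, from 250 bases before to 50 after the TSS, GGGCGG was found in Bgn and Cd44 and is present in 35.7% of all 32851 promoters of the table. TGACGTCA was found in Has1 (1.79% of all promoters), and TATAAA (13.6%), GGAATG (14.7%) and TGTGGT (16.8%) were found in Ogn. TGACTCA (5.20%) and TTCNNNGAA (8.30%) were in none of the 6. The letters of TGACTCA and TGACGTCA differ, so that neither is counted as the other.

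Promoters of vertebrate genes fall into those rich in CpG, which are often open in many cell types, and those poor in CpG, which are more often restricted. The ratio of observed to expected CpG, from 250 bp before to 50 bp after the main TSS of the annotation, was under 0.6 in all 10 genes, as in 54.7% of protein-coding genes. It was 0 in Lum, which had no CpG in this window, 0.155 in Fmod, 0.211 in Has1, 0.246 in Cd44, 0.275 in Ogn, 0.319 in Bgn, 0.342 in Prelp, 0.389 in Dcn, 0.512 in Has2 and 0.558 in Has3. Among the 11949 protein-coding genes under 0.6, 30.1% had a promoter peak and 23.9% had a peak covering a TSS, beside 5 and 2 of the 10 genes here. The order of CpG content did not separate the genes with a promoter peak from those without. Cd44, with the strongest promoter peak, had a lower ratio than Ogn, Bgn and Has3, with none. Measured over 500 bp to either side of the TSS instead, the ratio was under 0.6 in 8 of the 10 genes and in 53.4% of protein-coding genes.

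**Figure D3:**
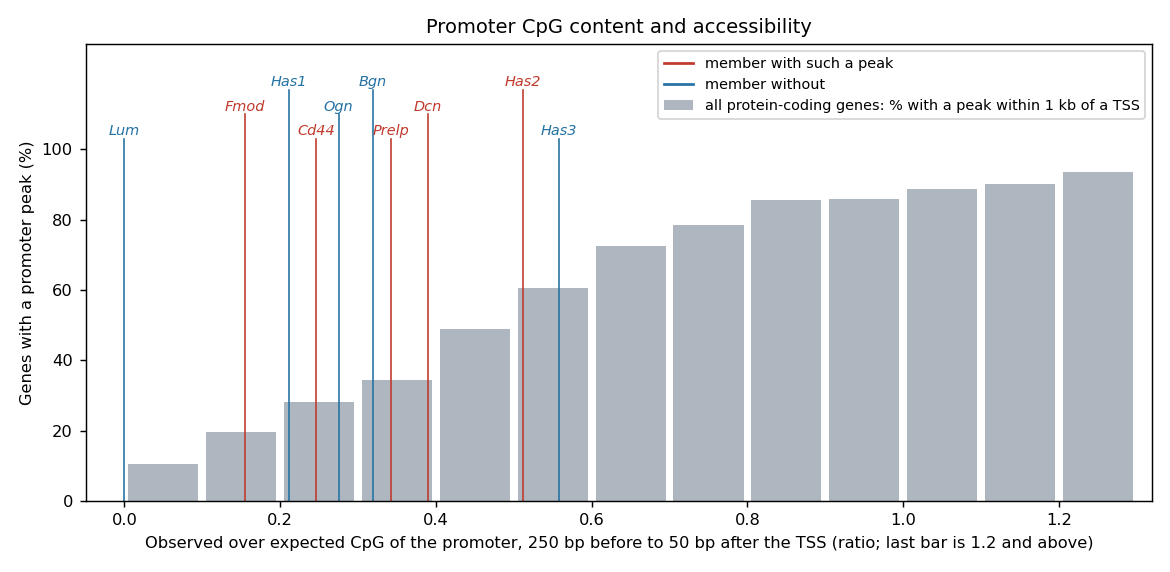
Share of protein-coding genes with a promoter peak (grey bars, y axis in %) by the ratio of observed to expected CpG in the promoter (x axis), with the 10 genes as vertical lines, red with and blue without a promoter peak. The share rises from 10.4% in the lowest bar to 93.6% in the highest, and all 10 lines are to the left of 0.6.

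Genes that act with the 10 were taken from lists of the pathway. To be set beside each list, 53.7% of all protein-coding genes had a promoter peak and 48.7% had a TSS covered. Of the 11 other small leucine-rich proteoglycan genes, 4 had a promoter peak (36.4%), and at 2 of these it covered a TSS. The highest were Podnl1, with 130 fragments and a fold of 14.1, and Tsku, with 58 and 9.76. Omd and Optc had 25 fragments each, and Aspn, Kera, Epyc, Ecm2, Chad, Nyx and Podn had no promoter peak. Over both lists of the family, the TSS was thus covered only at Podnl1 and Tsku, since none of the 6 proteoglycan genes described above had a peak there.

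Enzymes that make glycosaminoglycan precursors and chains were nearly all accessible, in 15 of 16 genes, with the TSS covered in 14. The highest folds were 13.7 at B3gat3, which completes the linker of the chains, and 12.6 at Uap1, which makes UDP-N-acetylglucosamine, a substrate of the hyaluronan synthases. Ugdh, which makes the other substrate, UDP-glucuronic acid, had 114 fragments, and Chsy3 had no promoter peak. Of these 16 genes, 5 had a CpG ratio under 0.6, against all 10 of the genes above.

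Genes of hyaluronan breakdown had a promoter peak in 5 of 6, all but Spam1, the hyaluronidase of sperm, and it covered a TSS in 4. Cemip2, which cuts hyaluronan at the cell surface, had 110 fragments and a fold of 10.2, and Hyal2 had 54 and 8.60. Hyal1 and Hyal3 share the same peak. Of 14 hyaluronan-binding proteins and receptors, 6 had a promoter peak, or 42.9% against 53.7% of all protein-coding genes. It covered a TSS in 5, led by Hmmr with a fold of 14.4 and Tnfaip6 with 13.4. It was absent from Acan, Ncan, Hapln1, Hapln2, Hapln3, Hapln4, Lyve1 and Stab2, which include the proteoglycans aggrecan and neurocan and the link proteins. Bcan, which encodes the brain proteoglycan brevican, had a low promoter peak with 14 fragments and a fold of 3.14 that did not cover a TSS.

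**Figure D4:**
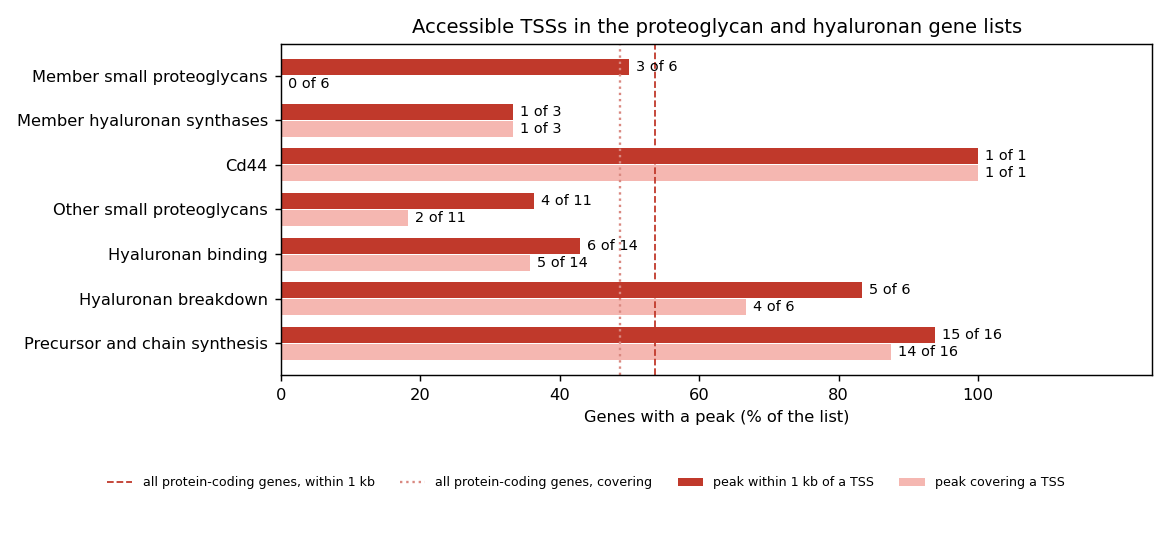
Share of each gene list (x axis, %) with a peak within 1 kb of a TSS (dark bars) or covering a TSS (light bars), with the share of all protein-coding genes as vertical lines at 53.7% and 48.7%. Precursor and chain synthesis, at 15 of 16 genes, lies to the right of both lines, and the light bar of the 6 small proteoglycans is at 0.

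The labelled cell type was checked with marker lists. All 12 fibroblast markers had a promoter peak, and it covered a TSS in 11, Thy1 with 12 fragments being the other. Over all protein-coding genes these shares were 53.7% and 48.7%. By fold, the 12 ranked above 1.93% (Thy1) to 56.9% (Fn1) of promoters with a peak. The endothelial marker Cdh5 ranked above 78.7%, higher than any of the 12. Of the markers of other cell types, 1 of 5 epithelial genes (Krt8) and 3 of 4 endothelial genes (Pecam1, Cdh5 and Tek) had one, and the 4 blood cell, the 4 cartilage and the 4 muscle and neuron genes had none. Genes of collagens that the proteoglycans bind, Col1a1, Col1a2 and Col3a1, had 59, 56 and 55 fragments with the TSS covered. By fold these peaks were also low, above 14.3%, 29.6% and 17.9% of promoters with a peak.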

How the data were processed

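The peak list of the only WT library (parental NIH-3T3, ATAC-seq) was analysed. According to the methods and labels, the authors aligned 75-nucleotide paired-end reads to mm10 with STAR 2.5.3a, kept unique reads, discarded duplicates (Picard) and ran the peak caller MACS2 2.1.1.20160309 on whole fragments. The methods mention no shift of ends for Tn5. For each peak the authors deposited a fold (the ratio of pileup to expected pileup at the summit, each with 1 added), a −log10 p-value, a −log10 q-value and a score. The lowest −log10 q was 1.30, the default q of 0.05.

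The fragments at a summit and the pileup expected there follow from fold and −log10 p together, and were found by root search. On 5000 simulated summits 99.98% were recovered, and 3 of the 63456 peaks, none at the 10 genes, missed by more than 0.01. They give the depth at summits, not that of the library. TSSs and genes were those of GENCODE M21 (GRCm38), and sequences were from RefSeq GRCm38.p6. The CpG ratio is the number of CpG times the window length, divided by the product of the C and G counts. Percentiles are shares of protein-coding genes with a lower value.

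The genes, lists and motifs were chosen with earlier results of these data known. Named were all 10 genes with their promoter peaks and their strongest gene-body and flanking peak, and from each pathway list the 2 highest genes and those without a promoter peak. Other peaks and the genes Ugdh, Omd, Optc, Bcan, Hyal1, Hyal3, Thy1 and the collagens were named after their values were seen. Alternatives were other distances, thresholds, windows and height measures. Scripts ran under Python 3.11.15 with pandas 2.3.3, NumPy 2.4.6, matplotlib 3.10.9 and SciPy 1.17.1.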

Additional observations from a re-analysis of the deposited data

How the results depend on the processing

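Of 41 alternatives, 28 left the value within 1.5 times or within its interval and 13 moved it. Reversal was not assessed. The 5 genes with a promoter peak became 2 when the peak had to cover the TSS (Has2 and Cd44, beside 48.7% of protein-coding genes), 3 within 500 bp (with Prelp, beside 52.0%), and 2 at a fold of at least 5 (Prelp and Cd44, beside 48.8%). At 2 kb (56.5%) or 5 kb (62.8%) Bgn, by the start of its internal transcript Bgn-208, and Has1 were added to give 7. By summit distance Fmod was lost. The median percentile of the promoter peaks by fold, 8.97, became 17.2 by −log10 q and 17.0 by fragments. It was 31.7 for the 2 peaks that cover a TSS, there ranked only among protein-coding genes with such a peak. These were counted as moved by a binomial interval over the 11788 protein-coding genes with a promoter peak. That interval does not measure the spread among the 5 genes, so the count of moved values says little here. At a fold of at least 5, the 18 gene-body peaks became 11 and the 64 peaks with a summit outside the gene, promoter peaks of Prelp and Has2 included, became 36. That number was 31 within 20 kb and 121 within 100 kb. The AP-1 heptamer rose from 30.3% to 47.0% of peaks when the whole interval was searched, and from 26.4% to 40.8% over all peaks of that class. Markers of other cell types with a promoter peak, 4 in all, became 1 when the TSS had to be covered and 2 at a q of 1e-05. No paired analysis was possible because there was 1 library and no groups were compared. The lowest summit in the list had 10 fragments, and weaker accessibility was not detectable at this depth, so a gene without a peak is not shown to be closed.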

Other observations

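Among the markers of other cell types, Cdh5, the cadherin of endothelial junctions, had a peak over its TSS with 114 fragments (94.0 to 136.9) and a fold of 12.8. Its interval overlapped that of the Cd44 promoter peak and lay above those of the other 4 promoter peaks described. Pecam1 had 62 fragments within 1 kb of a TSS and Tek had 13, while Kdr had none. These values were picked out after they were seen, and their source was not tested.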
